A study of Mus musculus with 4 samples.

Results

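The genes described here are 10 members of the cytosolic chaperone system of the mouse: the Hsp70 genes Hspa1a and Hspa8, the Hsp110 genes Hspa4l and Hsph1, the J protein genes Dnajb1 and Dnaja1, the co-chaperone gene Bag3, the Hsp90 genes Hsp90aa1 and Hsp90ab1, and Hsf1, the gene of their transcription factor. They were chosen by name, as the array probes whose gene name is 1 of the 10, and 14 of 39429 probes and 10 of 31896 gene names on the array met that rule. All 14 probes were well above background on all 4 arrays and none was saturated, so every member could be measured in every sample. Total RNA came from 3D engineered muscle, a skeletal muscle construct grown in vitro, and was hybridised to 4 single-colour Agilent arrays on 1 slide. The 4 groups were engineered muscle at 0 min after 30 min of acute EPS, engineered muscle at 0 min without EPS, engineered muscle at 5 h after 30 min of acute EPS, and engineered muscle at 5 h without EPS. EPS, spelled out in the labels as "electrical plus stimulation", is a current applied to cultured muscle to make it contract, and the tissue without EPS was the negative control. The labels name neither a strain, an age nor a cell source, and how many tissues went into an array is not given there. Each group had 1 array, so the values below describe these 4 arrays, carry no error between tissues and were not tested.

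Cytosolic chaperones bind unfolded stretches of other proteins and help them fold, refold or reach the proteasome. Hsp70 binds and releases its clients in a cycle driven by ATP: J proteins, also called Hsp40, deliver the client and start ATP hydrolysis, and Hsp110 and BAG proteins make Hsp70 give up its ADP. Hsp90 takes over partly folded clients such as kinases and steroid receptors. Heat, oxidants and damaged proteins release heat shock factor 1 (HSF1) from its chaperones, after which it binds heat shock elements in the promoters of the inducible members. In skeletal muscle, contraction and exercise are known to induce the inducible Hsp70, and BAG3 works with Hsp70 in the turnover of damaged filament proteins at the Z-disc.

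A member's level is the log2 of its background-corrected signal minus the log2 of the 75th percentile of that array, so a level of 0 is the signal of that percentile. The percentile was 1093.0 in EPS muscle and 1362.5 in muscle without EPS at 0 min, and 1491.9 in EPS muscle and 1280.3 in muscle without EPS at 5 h. Technical error was taken from probes printed 10 times on each array. For each such probe the log2 difference was taken spot by spot, and the 95th percentile over probes of its standard deviation, 0.26 for EPS against no EPS at 0 min and 0.25 at 5 h, is called the spot error below. This pooled value is set by dim probes: it was 0.31 and 0.30 for probes with a level below 0, and 0.08 and 0.06, called the bright-probe error, for probes with a level of 0 or more. Apart from Hspa1a, every member has a level above 0 on each array by the probe that represents it. All 14 skeletal muscle markers were well above background on every array. Of 9 leukocyte markers, Ptprc, Lyz2 and Cd52 were above background on none and 5 were above it on all 4, although the labelling protocol names leukocytes as the source of the RNA. In bulk tissue, fewer cells of a type and less RNA per cell cannot be told apart.

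Directly after stimulation the inducible Hsp70 gene Hspa1a and the J protein gene Dnajb1 were the only members more than 2-fold higher in EPS muscle than in muscle without EPS. Both were still measured 5 h later, when Hspa1a was again higher in EPS muscle and Dnajb1 differed by 0.05. Hsp90aa1, Bag3 and Hsph1 were higher by 0.46 to 0.50 on the log2 scale at 0 min, beyond the spot error and short of 2-fold. Part of this came with the scaling, as the 75th percentile of the EPS array at 0 min was the lower by 0.32. The unscaled signals, EPS muscle first, were 29331.6 and 25820.9 for Hsp90aa1, 6116.1 and 5508.1 for Bag3, and 11206.5 and 10170.3 for Hsph1. The transcription factor gene Hsf1 and the Hsp110 gene Hspa4l differed by less than the bright-probe error at both times, and the constitutive Hsp90ab1 did at 0 min. At 2-fold, 2 of 10 members were higher and 0 lower at 0 min, against 0.549% of 18589 measured genes higher and 0.791% lower. At 5 h 1 member was higher and 0 lower, against 0.690% of 18543 genes higher and 0.523% lower.

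**Figure D1:**
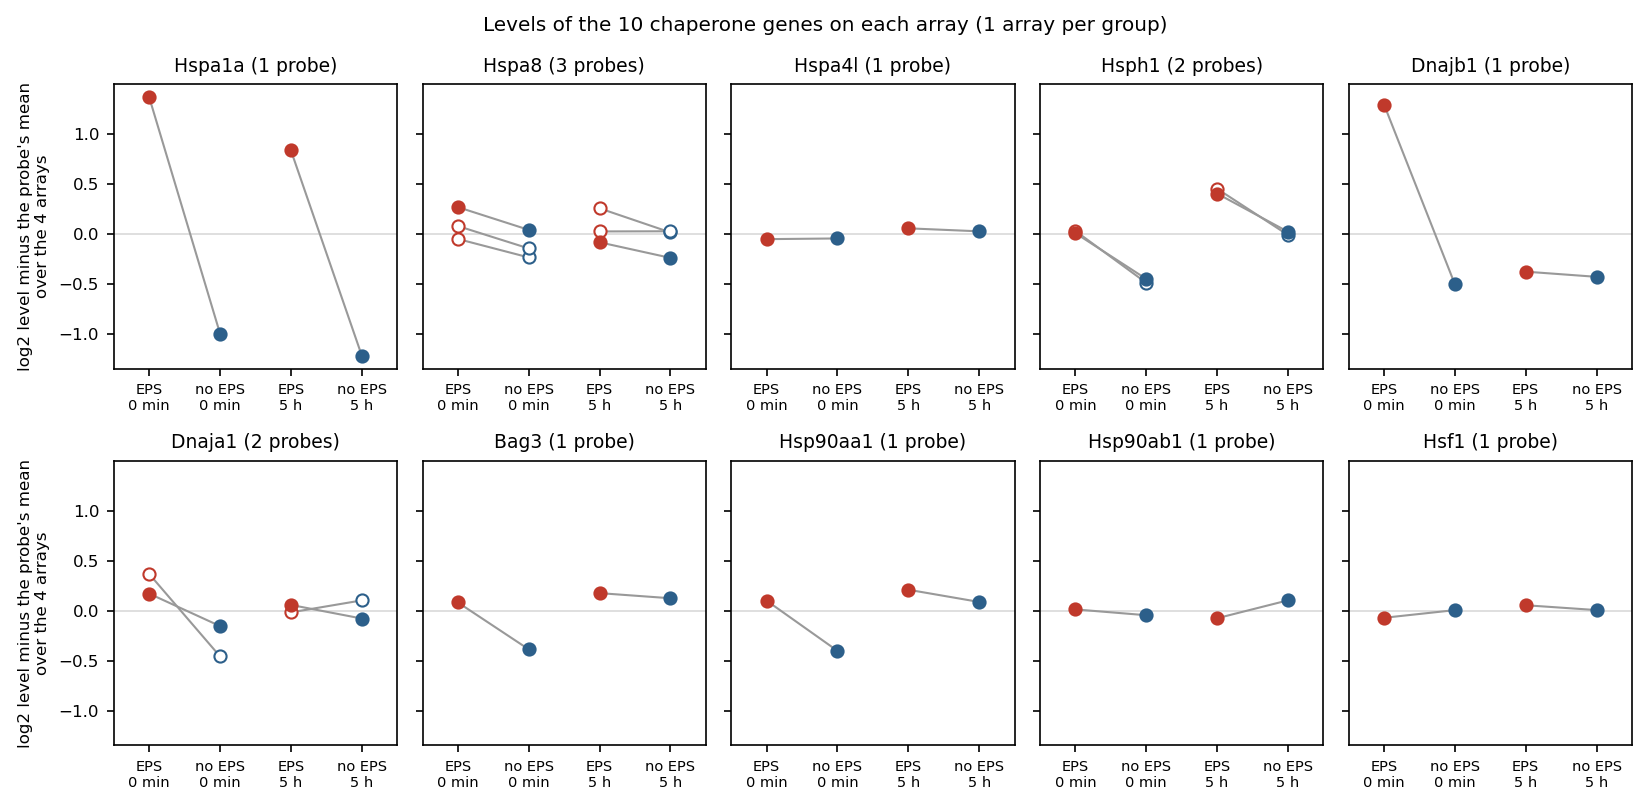
Level of each chaperone probe on each array, on a log2 scale and relative to the probe's own mean over the 4 arrays; red marks EPS and blue no EPS, filled circles the probe that represents the gene and open circles its other probes, and lines join the arrays compared. Hspa1a is higher in EPS muscle at both times and Dnajb1 at 0 min, while Hspa4l and Hsf1 stay within 0.13 over the arrays.

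Hspa1a encodes the stress-inducible cytosolic Hsp70. It was measured by 1 probe, A_55_P2068459, at chr17:35107117-35107176 on the minus strand of build mm9, within the coding sequence of this intronless gene. The array files list accessions of both Hspa1a and its near-identical neighbour Hspa1b for this probe, and no probe on the array carries the name Hspa1b. The signal is therefore that of both genes together, and how it divides between them cannot be read from it. The probe is shown because the largest EPS differences among the members rest on it, in the sense direction and in lower case throughout.
Hspa1a and Hspa1b probe: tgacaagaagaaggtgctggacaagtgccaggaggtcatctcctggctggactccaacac

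The Hspa1a signal was 932.6 in EPS muscle and 226.0 in muscle without EPS at 0 min, and 881.3 in EPS muscle and 182.5 in muscle without EPS at 5 h. Levels were -0.23 in EPS muscle and -2.59 in muscle without EPS at 0 min, and -0.76 in EPS muscle and -2.81 in muscle without EPS at 5 h. The arrays with EPS were the high ones and those without EPS the low ones at both times. The EPS difference was 2.36 at 0 min, or 5.14-fold, which ranked 6 from the top of 18589 genes. At 5 h it was 2.05, or 4.14-fold, ranked 19 of 18543. These are 8.99 and 8.28 times the spot error. Between the times, the level at 5 h minus that at 0 min was -0.53 after EPS and -0.22 without EPS, so the EPS difference was 0.31 smaller at 5 h. That change is close to the spot error of a difference between EPS effects, 0.31, and under the 0.41 of probes with a level below 0. Hspa1a is the dimmest member and depends most on the background correction: with normexp its differences were 2.03 at 0 min and 1.72 at 5 h.

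Hspa8 encodes Hsc70, the constitutive cytosolic Hsp70. Its brightest probe had signals of 67760.1 in EPS muscle and 72157.5 in muscle without EPS at 0 min, and of 72493.2 in EPS muscle and 55834.1 in muscle without EPS at 5 h. On the scaled levels this became 5.95 in EPS muscle and 5.73 in muscle without EPS at 0 min, and 5.60 in EPS muscle and 5.45 in muscle without EPS at 5 h. The scaling thus turned the order of the unscaled signals at 0 min, where the 75th percentile of the EPS array was the lower by 0.32. Its 3 probes lay close together for EPS at 0 min, from 0.18 to 0.23. They parted for EPS at 5 h, from -0.00 to 0.24, and between the times, from -0.28 to 0.25 without EPS and from -0.35 to 0.31 after EPS. No direction over time can be given for Hspa8, and its EPS differences were within the spot error by every probe. Past the bright-probe error were all 3 probes at 0 min and 2 of 3 at 5 h.

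Among the Hsp110 genes, whose products act as nucleotide exchange factors for Hsp70, Hsph1 varied and Hspa4l did not. Hsph1 (Hsp105) had levels of 3.36 in EPS muscle and 2.90 in muscle without EPS at 0 min, and of 3.75 in EPS muscle and 3.37 in muscle without EPS at 5 h. EPS muscle was the higher at each time, by 0.46 and 0.38, and the 5 h array was the higher within each condition, by 0.40 after EPS and 0.47 without EPS. A further probe for Hsph1 gave 0.52 and 0.46 for EPS and 0.42 and 0.48 for time. Both probes thus placed the 4 arrays in the same pattern, with every difference past the spot error and under 2-fold. Besides Hspa1a, Hsph1 was the only member past the spot error with EPS at both times; Hspa8, Dnaja1 and Hsp90aa1 were also past the bright-probe error at both. Hspa4l (Apg-1) had levels of 1.52 in EPS muscle and 1.52 in muscle without EPS at 0 min, and of 1.63 in EPS muscle and 1.60 in muscle without EPS at 5 h. Its range of 0.11 was narrower than that of 96.5% of the 18105 genes measured on every array. Those genes had a median mean level of -0.40, against 1.57 for Hspa4l, and dim probes had the larger spot error.

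Dnajb1 encodes Hsp40, the stress-inducible J protein that works with the inducible Hsp70. Its probe, A_51_P153486, lies at chr8:86135660-86135719 on the plus strand of build mm9. The signal was 70236.2 in EPS muscle and 25191.5 in muscle without EPS at 0 min, and 30101.2 in EPS muscle and 24922.2 in muscle without EPS at 5 h. Levels were 6.01 in EPS muscle and 4.21 in muscle without EPS at 0 min, and 4.33 in EPS muscle and 4.28 in muscle without EPS at 5 h. The EPS array at 0 min stood alone, and the other arrays lay within 0.13 of each other. The EPS difference at 0 min was 1.80, or 3.48-fold, ranked 15 of 18589 genes, and at 5 h it was 0.05. After EPS the level was 1.67 lower at 5 h than at 0 min, or 3.18-fold, while without EPS it was 0.07 higher. The difference between the EPS effects, 5 h minus 0 min, was -1.75, the only such difference past 2-fold among the members. Over all genes 1.0% passed 2-fold upward and 0.994% downward in that comparison, of 18105. Hspa1a and Dnajb1 were thus both higher at 0 min, and at 5 h only Hspa1a was; their differences of EPS effects were -0.31 and -1.75 and were not tested against each other.

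Dnaja1, a J protein of the type that carries a zinc finger, had levels of 4.85 in EPS muscle and 4.53 in muscle without EPS at 0 min, and of 4.74 in EPS muscle and 4.60 in muscle without EPS at 5 h. Its EPS differences were 0.32 and 0.14, the first past the spot error and both past the bright-probe error. The unscaled signals at 0 min were nearly equal, 31543.0 in EPS muscle and 31396.8 in muscle without EPS. The 0.32 thus came with the scaling, as the 75th percentile of that EPS array was the lower by 0.32. Over the processing settings the difference at 0 min ran from 0.22, under the spot error of 0.26, to 0.57. A much dimmer probe for Dnaja1, with levels between -3.81 and -2.99, gave 0.82 at 0 min and -0.12 at 5 h. The probes thus agreed in direction at 0 min and not at 5 h.

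**Figure D2:**
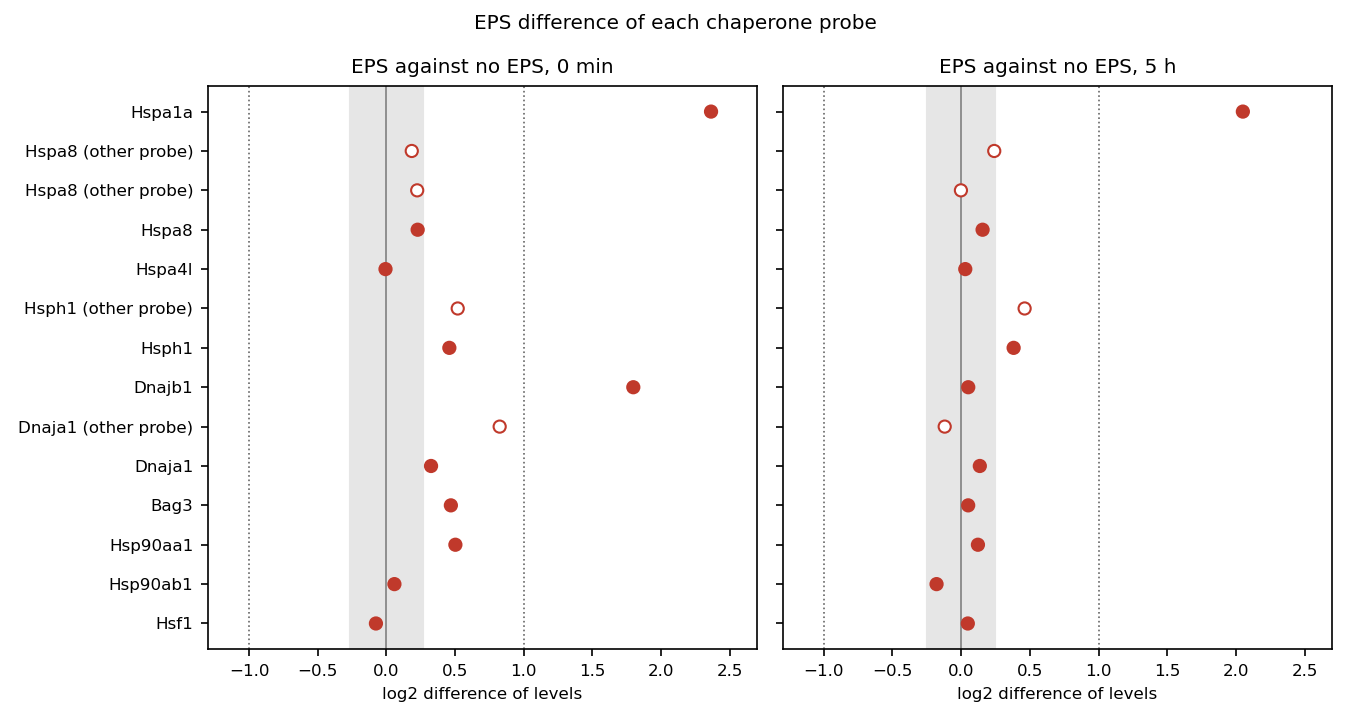
EPS difference of each of the 14 chaperone probes (log2 level in EPS muscle minus log2 level in muscle without EPS) at 0 min and 5 h; filled circles are the probes that represent a gene, open circles its other probes, the grey band is the spot error of 0.26 and 0.25, and dotted lines mark 2-fold. At 0 min Hspa1a and Dnajb1 lie beyond 2-fold, and at 5 h Hspa1a alone does.

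Bag3, the co-chaperone that joins Hsp70 to autophagy of filament proteins, had levels of 2.48 in EPS muscle and 2.02 in muscle without EPS at 0 min, and of 2.58 in EPS muscle and 2.53 in muscle without EPS at 5 h. Hsp90aa1, the inducible cytosolic Hsp90, had levels of 4.75 in EPS muscle and 4.24 in muscle without EPS at 0 min, and of 4.86 in EPS muscle and 4.73 in muscle without EPS at 5 h. For both genes the array without EPS at 0 min was the low one, and the other arrays lay within 0.13 of each other. Their EPS differences were 0.47 and 0.50 at 0 min, and 0.05 and 0.12 at 5 h. In muscle without EPS they were 0.51 and 0.49 higher at 5 h than at 0 min, which is as large as the EPS difference at 0 min. Both comparisons have the same array as their control, muscle without EPS at 0 min, and so do not count as separate results. After EPS the same genes were 0.09 and 0.11 higher at 5 h than at 0 min.

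That array was the lowest for 5 of 10 members, Hsph1, Dnajb1, Dnaja1, Bag3 and Hsp90aa1, and it was the lowest for 26.6% of all genes measured on the 4 arrays. It was the highest for 0 members and for 27.0% of all genes. The EPS array at 0 min was the highest for 4 members, Hspa1a, Hspa8, Dnajb1 and Dnaja1, and for 29.6% of all genes. The EPS array at 5 h was the highest for 5 members, Hspa4l, Hsph1, Bag3, Hsp90aa1 and Hsf1, for all but Hsph1 by 0.11 or less, and for 26.0% of all genes.

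Hsp90ab1, the constitutive cytosolic Hsp90, had levels of 6.85 in EPS muscle and 6.79 in muscle without EPS at 0 min, and of 6.76 in EPS muscle and 6.94 in muscle without EPS at 5 h. Its differences of 0.06 and -0.18 lay within the spot error, the second past the bright-probe error, and it took the other sign under quantile normalization at both times (-0.11 and 0.02). The inducible and the constitutive Hsp90 genes thus differed by 0.50 and 0.06 with EPS at 0 min. Hsf1 had levels of 1.45 in EPS muscle and 1.53 in muscle without EPS at 0 min, and of 1.58 in EPS muscle and 1.53 in muscle without EPS at 5 h. Its range of 0.13 was narrower than that of 94.9% of the 18105 genes, many of them dimmer and so with a larger spot error. The RNA of the transcription factor thus lay near 1 level on all 4 arrays. Neither the protein of Hsf1 nor its activity is measured by the array. In order of their range over the 4 arrays, the members were Hspa1a (2.58), Dnajb1 (1.80), Hsph1 (0.85), Hsp90aa1 (0.61), Bag3 (0.56), Hspa8 (0.51), Dnaja1 (0.32), Hsp90ab1 (0.18), Hsf1 (0.13) and Hspa4l (0.11), where the median gene had 0.44. From Hsph1 down, neighbours in that order differed by less than the spot error.

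**Figure D3:**
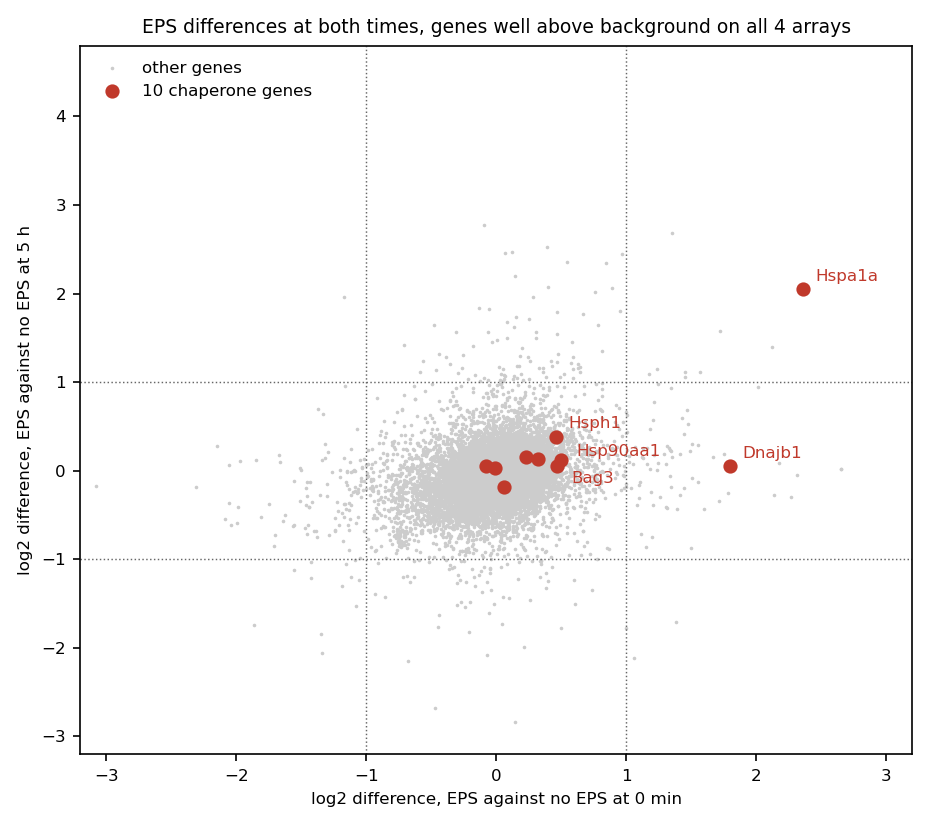
EPS difference at 5 h (vertical axis, log2) against that at 0 min (horizontal axis, log2) for genes measured on every array; grey dots are other genes, red dots the 10 chaperone genes, and dotted lines mark 2-fold. Of 18105 genes, 1 lies beyond the axes. Hspa1a lies beyond 2-fold on both axes and Dnajb1 on the horizontal axis alone.

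Taking the spot error in place of 2-fold, 6 members were higher and 0 lower in EPS muscle at 0 min, against 10.5% and 12.6% of all measured genes. Dnaja1 was 1 of the 6, and its difference went as low as 0.22 over the processing settings. At 5 h 2 members were higher and 0 lower, against 9.73% and 17.1%. With the error of probes as bright as each gene, an alternative chosen after the values had been seen, 7 members were higher and 0 lower at 0 min, against 24.7% and 16.1% of all genes. At 5 h 5 were then higher (Hspa1a, Hspa8, Hsph1, Dnaja1 and Hsp90aa1) and 1 lower (Hsp90ab1), against 19.6% and 27.3%. The member median was 0.39 at 0 min and 0.09 at 5 h, where that of all genes was 0.02 and -0.03. Bright genes were displaced as a whole, which bears on the members with small differences. The 1560 genes with a mean level of 4 or more had a median of 0.12 at 0 min, with 90% of them between -0.07 and 0.32. Against that range Dnajb1 and Hsp90aa1 lay above, Dnaja1 at its upper edge, and Hspa8 and Hsp90ab1 inside. At 5 h the genes of that brightness had a median of -0.10, between -0.33 and 0.17, and all 5 bright members lay inside. The differences of EPS effects of Dnaja1 (-0.19) and Hsp90ab1 (-0.24) were close to the median of -0.22 for genes as bright, while Hsp90aa1 stood at -0.38 inside their range and Dnajb1 at -1.75 outside it. Among genes with levels from 2 to 4, Hsph1 and Bag3 lay above the range at 0 min (-0.21 to 0.31), and at 5 h (-0.33 to 0.25) Hsph1 did. These groups by brightness were formed after the values had been seen.

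Over time without EPS 0 of 10 members reached 2-fold, where 1.74% of 18484 genes were higher at 5 h and 2.96% lower. After EPS 0 members were higher and 1, Dnajb1, was lower at 5 h, where 2.40% of 18470 genes were higher and 3.65% lower. Each of these comparisons shares its array at 0 min with the EPS comparison at 0 min, and its array at 5 h with that at 5 h. Past the spot error without EPS, Bag3, Hsp90aa1 and Hsph1 were higher at 5 h (0.51, 0.49 and 0.47) and Hspa8 was lower by its brightest probe alone, where 21.0% of all genes were higher and 26.7% lower. After EPS, Hsph1 was higher (0.40), and Dnajb1, Hspa1a and the brightest Hspa8 probe were lower (-1.67, -0.53 and -0.35), where 26.5% of all genes were higher and 39.6% lower. In the difference of EPS effects 0 members were past the spot error upward and 4 downward, Dnajb1, Bag3, Hsp90aa1 and Hspa1a, where 9.70% of all genes were upward and 14.8% downward. With the error of probes as bright, 6 members were higher and 1 lower over time without EPS (28.5% and 30.4% of all genes), 5 higher and 5 lower after EPS (29.4% and 42.0%), and 1 upward and 5 downward in the difference of EPS effects (14.1% and 26.9%), where Hspa1a no longer passed.

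Summed over the 14 skeletal muscle markers, signals in units of the 75th percentile were 911 in EPS muscle and 792 in muscle without EPS at 0 min, and 675 in EPS muscle and 731 in muscle without EPS at 5 h. Over 10 fibroblast markers they were 355 in EPS muscle and 324 in muscle without EPS at 0 min, and 253 in EPS muscle and 295 in muscle without EPS at 5 h, with Thy1 above background on none. Both sums were thus higher with EPS at 0 min and lower with EPS at 5 h. However, 5 of 9 measured fibroblast markers were lower at 0 min, with a median of -0.01. The sums over 9 leukocyte markers lay between 8.71 and 10.6 on the 4 arrays and those over 6 endothelial markers between 1.99 and 3.51. For 8 neuron and Schwann cell markers the sum was 0.54 in EPS muscle and 1.01 in muscle without EPS at 0 min, and 0.72 in EPS muscle and 0.84 in muscle without EPS at 5 h. The gap at 0 min came mostly from Nefl alone. Its level was -1.48 in muscle without EPS and -7.90, not above background, in EPS muscle. Of the 4 neural markers measured at 0 min, 1 lay above 0 and 3 below, with a median of -0.28. For 6 adipocyte markers the sum was 0.97 in EPS muscle and 0.70 in muscle without EPS at 0 min, and 0.66 in EPS muscle and 0.65 in muscle without EPS at 5 h. Plin1, 1 of these, was above background on the EPS array at 0 min alone. The leukocyte, endothelial, neural and adipocyte sums include markers that were not above background. Itgam was the brightest leukocyte marker and Kdr the brightest endothelial marker on every array. The part of these cell types in the members' differences was not tested.

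The start regions of the members were searched for heat shock elements, the sites bound by HSF1, in RefSeq's table for build GRCm38.p6, which gives 250 bases before and 50 past each start. A pair of units is GAANNTTC or TTCNNGAA and a run of 3 is the first pair followed by NNGAA or the second followed by NNTTC; each pair reads alike on both strands, and the runs are each other's opposite strand and contain the pairs. Of 32851 such windows in the table, 15.06% held a pair and 0.6% a run of 3. Entries were matched for Hspa1a, Hspa4l, Hsph1, Dnajb1, Dnaja1 and Bag3, and not for Hspa8, Hsp90aa1, Hsp90ab1 and Hsf1. Hspa1a held 1 pair beginning 104 bases before the start, and Hspa1b the same pair at the same place, in windows identical at 296 of 300 bases. Hsph1 held 1 pair beginning 33 bases before its most upstream start and a run of 3 beginning 36 bases past it. Dnaja1 held 1 pair 124 bases before its most upstream start and 0 in the windows of its 2 other annotated starts, Bag3 held 1 pair 42 bases past its start, and neither Dnajb1 nor Hspa4l held an exact pair. A match describes letters and not binding, and elements with a changed letter or farther from the start were not searched. The 250 bases before the start are given for the 3 members with the widest ranges over the arrays, with any pair in capitals, so that a reader can compare the inducible genes.
Hspa1a, chr17:34972157-34972406, minus strand: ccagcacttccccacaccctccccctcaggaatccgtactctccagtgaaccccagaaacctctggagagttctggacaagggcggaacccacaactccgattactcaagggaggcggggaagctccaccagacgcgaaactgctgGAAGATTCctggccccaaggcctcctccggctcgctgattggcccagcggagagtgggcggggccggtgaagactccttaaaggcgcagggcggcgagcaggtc
Hsph1, chr5:149636337-149636586, minus strand: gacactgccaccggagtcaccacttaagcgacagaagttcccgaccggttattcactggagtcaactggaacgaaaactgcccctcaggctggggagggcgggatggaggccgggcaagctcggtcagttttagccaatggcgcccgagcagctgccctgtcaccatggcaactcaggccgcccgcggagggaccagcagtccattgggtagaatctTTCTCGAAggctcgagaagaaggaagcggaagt
Dnajb1, chr8:83607925-83608174, plus strand: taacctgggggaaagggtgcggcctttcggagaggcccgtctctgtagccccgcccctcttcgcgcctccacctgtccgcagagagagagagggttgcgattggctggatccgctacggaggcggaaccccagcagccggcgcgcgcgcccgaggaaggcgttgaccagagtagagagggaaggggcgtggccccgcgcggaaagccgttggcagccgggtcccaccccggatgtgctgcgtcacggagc

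**Figure D4:**
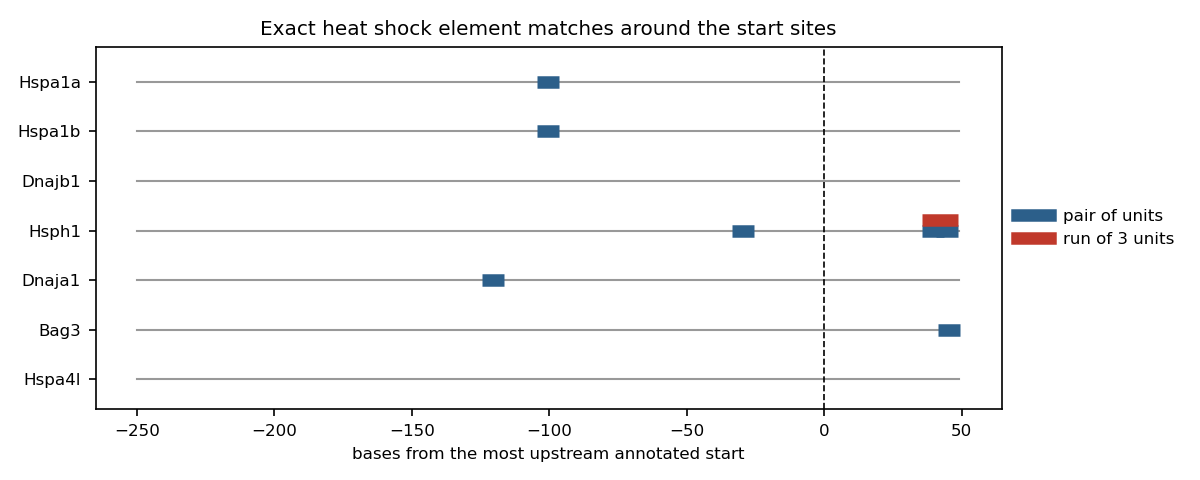
Exact heat shock element matches in the start regions of the members with an entry in the RefSeq table and of Hspa1b, along the distance in bases from the most upstream annotated start (negative before it); blue boxes are pairs of units and red boxes runs of 3. Hspa1a and Hspa1b share a pair 104 bases before the start, Hsph1 has a pair before and a run of 3 past its start, and Dnajb1 and Hspa4l have no exact match.

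Among the listed genes of the rest of the chaperone network 1, Ppp5c, was past 2-fold with EPS at 0 min, by more than Hspa1a and Dnajb1 were. Of 22 further HSF1 target genes, 0 reached 2-fold and 21 lay above 0, with a median of 0.15. Over all genes 54.5% lay above 0 at 0 min, and 43.4% did at 5 h. Ier5, a regulator of HSF1, differed by 0.56 and the small heat shock protein gene Hspb1 by 0.33. Reference genes, however, had a median of 0.12 with 10 of 12 above 0, so a median of that size was also found outside the chaperones. Under quantile normalization 17 of 22 HSF1 targets lay above 0 with a median of 0.06, the reference genes stood at -0.00 with 6 of 12 above 0, and the 10 members at 0.31 with 7 of 10 above 0. At 5 h the HSF1 targets had a median of 0.03 with 12 of 22 above 0, with Ier5 at 0.58 and the mitochondrial chaperonin gene Hspd1 at 0.23. Ier5 was thus higher in EPS muscle by similar amounts at both times, as Hspa1a was.

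Other Hsp70 and Hsp110 genes, listed as cytosolic, had a median of -0.01 at 0 min and -0.07 at 5 h, with 0 of 7 past 2-fold at either time. The list also holds Hspa13, which codes for an Hsp70 of the microsomes and not of the cytosol, at -0.06 and 0.31. Within that list Hspa1l, which codes for a testis-enriched Hsp70, differed by 0.23 at 0 min. Hspa12a, a distant Hsp70 relative, differed by -0.44 at 0 min and -0.41 at 5 h, and Hspa12b by -0.42 at 5 h. The 14 other J protein genes, listed as cytosolic, had medians of 0.09 and -0.00. Whether each product lies in the cytosol was not checked. Dnajb2 (0.57) and Dnajc27 (-0.40) were the widest at 0 min, and Dnajc27 (-0.34) and Dnajc21 (0.24) at 5 h. The 1.80 of Dnajb1 at 0 min thus lay above every one of these 14 genes. The 9 genes listed as nucleotide exchange factors and Hsp70 co-chaperones had medians of 0.07 and 0.02. Their widest differences were those of Bag1 (0.21) and Bag5 (0.14) at 0 min and of Hspa14 (0.14) and Bag5 (0.11) at 5 h. Bag3 thus had a larger difference at 0 min than any gene of this list. Hspa14 is also in the list of other Hsp70 and Hsp110 genes, so it is counted in both.

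Of 18 Hsp90 co-chaperone genes, 1 was more than 2-fold higher with EPS at 0 min and 17 lay above 0, with a median of 0.11. That gene was Ppp5c, a phosphatase that binds Hsp90, at 2.65 or 6.28-fold. Its level was -0.28 in EPS muscle and -2.93 in muscle without EPS at 0 min, and -0.22 in EPS muscle and -0.24 in muscle without EPS at 5 h, so the control array at 0 min stood alone. At 5 h the list had a median of 0.02 with 0 past 2-fold, the widest being Aarsd1 (-0.26) and Cacybp (0.19). For the 7 measured genes of the HSF family and its regulators the medians were -0.00 and -0.24, with Hsf2bp, which codes for a partner of HSF2, at -0.89 and the acetyltransferase gene Ep300 at 0.51 at 0 min, and Sirt1, a deacetylase gene, at 0.30 and Hsf2bp at -0.30 at 5 h. None of these 7 reached 2-fold, and neither did Hsf1.

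**Figure D5:**
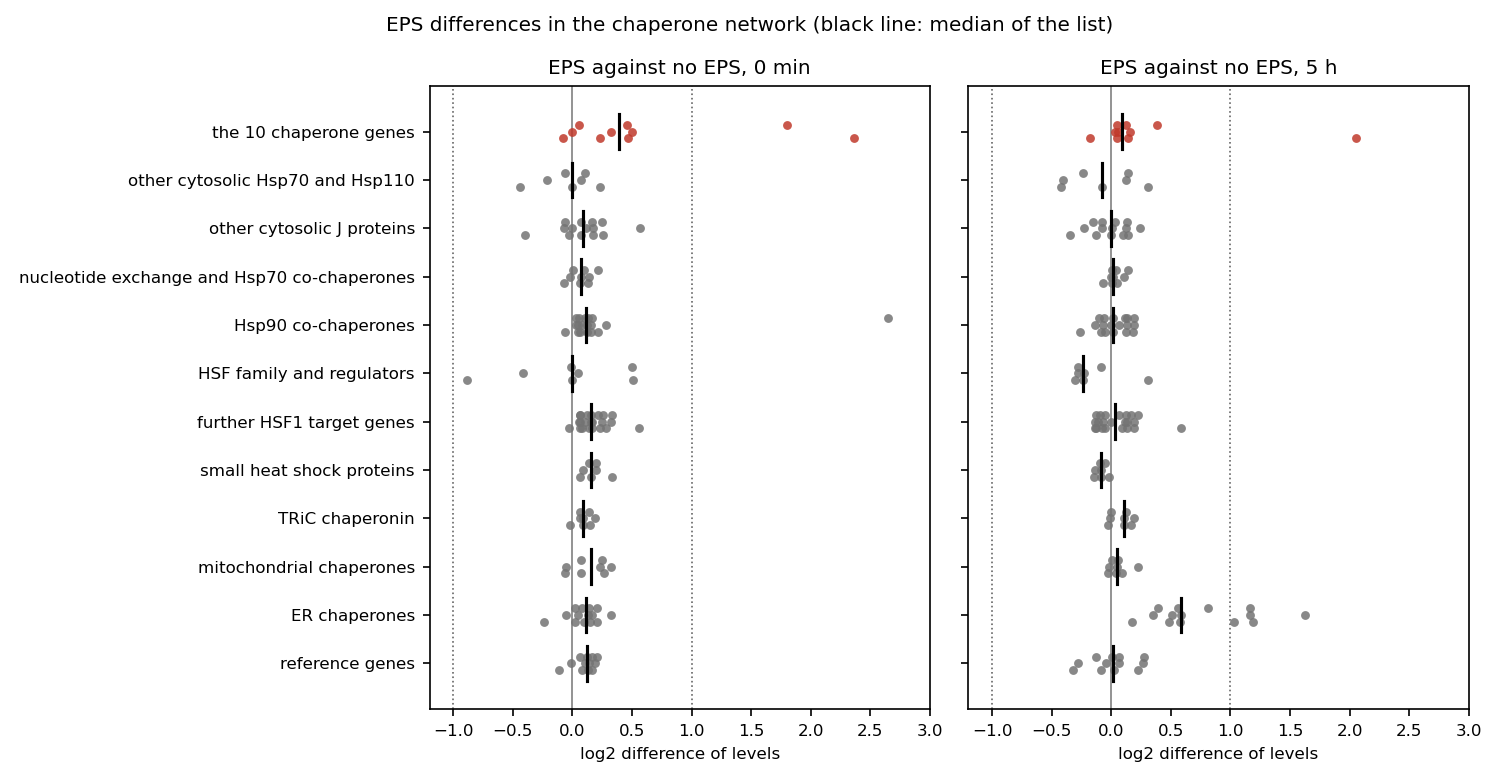
EPS differences (log2 level in EPS muscle minus log2 level in muscle without EPS) of the 10 chaperone genes (red) and of the measured genes of 11 other lists (grey) at 0 min and 5 h; each dot is a gene, black lines are list medians and dotted lines mark 2-fold. At 0 min the 10 members have a median of 0.39 and the reference genes 0.12, and at 5 h the ER chaperones, with a median of 0.58, lie to the right of the other lists.

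Small heat shock protein genes, 7 measured, had a median of 0.15 at 0 min with 7 above 0, and of -0.09 at 5 h with 0 above 0. Of all genes, 54.5% lay above 0 at 0 min and 43.4% at 5 h. Hspb1, Hspb2, Hspb8 and Cryab had levels above 4 on every array, and genes as bright had medians of 0.12 and -0.10. Hspb1 (0.33) and Hspb6 (0.20) were the widest at 0 min and Hspb2 (-0.15) and Hspb8 (-0.14) at 5 h. Under quantile normalization 6 of 7 lay above 0 at 0 min and 2 of 7 at 5 h. The TRiC chaperonin, which folds actin and tubulin, had medians of 0.09 and 0.11 over 8 subunit genes, with Cct6a (0.19) and Cct7 (0.14) the widest at 0 min and Cct4 (0.19) and Tcp1 (0.17) at 5 h. Mitochondrial chaperones had medians of 0.15 and 0.04, with Hspe1 (0.32) and Lonp1 (0.27) the widest at 0 min and Hspd1 (0.23) and Hspe1 (0.09) at 5 h. In none of these lists did a gene reach 2-fold at either time. Among reference genes Ppia (0.21) and Rplp0 (0.19) were the widest at 0 min and Ppia (-0.32) and Gapdh (-0.28) at 5 h.

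Chaperones of the endoplasmic reticulum (ER), which serve secreted proteins and belong to the unfolded protein response, had the opposite order in time to Dnajb1. Their median was 0.11 at 0 min, with 12 of 14 above 0 and 0 past 2-fold, and Sdf2l1 (0.33) and Dnajc3 (-0.24) the widest. At 5 h it was 0.58, with 14 of 14 above 0 and 5 past 2-fold: Creld2 (3.08-fold), Hyou1 (2.27-fold), Manf (2.25-fold), Sdf2l1 (2.24-fold) and Pdia4 (2.04-fold). With normexp, Hyou1 and Pdia4 stood at 0.86 and 0.98, under 2-fold. In the same comparison 9 of the 10 cytosolic members lay between -0.18 and 0.38. Of the members and the measured genes of the chaperone lists, Hspa1a was the only one past 2-fold with EPS at both times.

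The genes whose pattern over the 4 arrays was nearest to a member's were sought among 18105 genes, by the root mean square difference of levels after each gene's own mean was taken off. Nearest to Hspa1a were Usp17lb (0.28), a member of the Usp17-like deubiquitinase family, Arc (0.43), an activity-induced gene, the pseudogene Usp-ps (0.47), LOC100044260 (0.53) and Stac (0.53). Usp17lb was higher in EPS muscle by 1.72 at 0 min and 1.58 at 5 h, and Arc by 2.12 and 1.40. No other member and no gene of the lists was among them. Nearest to Dnajb1 were Supt20 (0.13), EG665756 (0.16), ENSMUST00000072427 (0.18), Gm4968 (0.19) and Cyp2j7 (0.19), all with mean levels of -3.59 or lower. Dnajb1 itself had a mean level of 4.71. Nearest to Bag3 were ENSMUST00000122402 (0.02), Gm14816 (0.02), its fellow member Hsp90aa1 (0.03), Sh2d7 (0.03) and Vars2 (0.03). Over 4 arrays such likeness is a description of these arrays alone.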

How the data were processed

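The deposited values are spot intensities, per the file headers from Agilent Feature Extraction 10.7.3.1, corrected for background and spatial trend; the deposited value table holds the same intensities, equal at all 44397 values per array within a relative tolerance of 0.0001, and array column medians of 57.6 (EPS, 0 min), 75.2 (no EPS, 0 min), 69.4 (EPS, 5 h) and 64.0 (no EPS, 5 h). Scale, centring and direction are therefore known: linear, uncentred and not a ratio. Depth has no meaning here, and the number of arrays limits the precision.

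The 75th percentile was taken over 43020 spots per array that are not controls. Spots flagged as outliers (112 to 141) were left out, log2 values were averaged over a probe's remaining spots, and the brightest probe stood for its gene. Of 39429 probes, 26055 were matched by accession to RefSeq's table (GRCm38.p6), which renamed 3358 and no member; the others kept the file's name. Positions of probes are those of the array files, build mm9. A gene counted as measured where it was well above background on both arrays of a comparison (all 4 for differences of effects). A size rule of 2-fold stood in for a test. The spot error comes from 399 probes printed 10 times, of which 268 to 273 were measured, and covers 1 labelled RNA per group. The calculation was tested on simulated arrays. Python 3.11.15, numpy 2.4.6, pandas 2.3.3, R 4.3.3 and limma 3.58.1 were used.

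The members, the 11 gene lists, the 6 marker lists, the motifs and the tests were chosen with earlier results of these data known; 1 listed marker gene is not reported here and is left out of its list. Named genes are the members, Hspa1b, genes of each list past 2-fold or otherwise up to 2 with the widest difference in each EPS comparison, and the 5 genes nearest to Hspa1a, Dnajb1 and Bag3. Alternatives were normexp (offset 50), median centring, quantile normalization, 3 other filters on dim genes, the mean of a gene's probes, outlier spots kept, the scanner files' names and 1.5-fold.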

Additional observations from a re-analysis of the deposited data

Results flagged for a closer look

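For 5 of the 14 chaperone probes the EPS difference had opposite signs at the 2 times, on 1 array per group, and the difference between the times was not tested. Given as the EPS difference at 5 h minus that at 0 min, it was -0.23 for probe A_55_P2069721 of Hspa8 (-0.00 at 5 h and 0.22 at 0 min), 0.037 for Hspa4l (0.03 and -0.01), -0.94 for the dim probe A_55_P1992149 of Dnaja1 (-0.12 and 0.82), -0.24 for Hsp90ab1 (-0.18 and 0.06) and 0.13 for Hsf1 (0.05 and -0.08). Of these 10 EPS differences, the value of the Dnaja1 probe at 0 min alone exceeded the pooled spot error of 0.26 and 0.25; those of Hspa8 at 0 min and Hsp90ab1 at 5 h exceeded the error of bright probes, 0.08 and 0.06. The brighter Dnaja1 probe was positive at both times.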

How the results depend on the processing

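No paired analysis was possible because each group holds 1 array, and for the same reason no array could be left out. The counts of members past 2-fold were the same under all alternatives, 1.5-fold included, and no member past 2-fold changed direction. With the spot error of probes as bright, chosen after the data were seen, 6, 7 and 10 members passed it for EPS at 5 h, time without EPS and time after EPS, against 2, 4 and 4. For EPS at 5 h, 19.6% of all genes passed it upward and 27.3% downward, against 9.73% and 17.1% with the pooled spot error. Over time without EPS the shares were 28.5% and 30.4%, against 21.0% and 26.7%. Over time after EPS they were 29.4% and 42.0%, against 26.5% and 39.6%. The counts over all genes moved too: in the order EPS at 0 min, EPS at 5 h, time without EPS, time after EPS and difference of EPS effects, 249, 225, 869, 1117 and 361 genes passed 2-fold, against 71, 74, 411, 600 and 109 with normexp, 1024, 1027, 1770, 2177 and 1837 with genes above background on at least 1 array compared, and 2246, 2530, 3111, 3940 and 3978 without a filter, where dim genes enter. Median centring set the median of all genes at 0.11 without EPS and 0.10 after EPS over time, against -0.02 and -0.08, and the genes higher and lower at 470 and 388, and 737 and 414, against 322 and 547, and 443 and 674. For EPS at 5 h it gave 161 higher and 74 lower, against 128 and 97; quantile normalization gave 530 higher and 518 lower for time after EPS. Of the members, Hspa1a (normexp), Hspa8 over time (quantile, -0.15 after EPS; mean of probes, 0.05 without and -0.03 after EPS), Hsp90ab1 (quantile, 0.20 over time after EPS and 0.14 for the difference of effects) and Dnaja1 (mean of probes, -0.57 for that difference) moved by more than the spot error; the cause was not tested.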
